A study of Homo sapiens with 4 samples.

Results

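The 10 genes described here encode carriers that move neutral and cationic amino acids across the plasma membrane: SLC7A5, SLC3A2, SLC1A5, SLC1A4, SLC7A1, SLC7A6, SLC7A8, SLC38A1, SLC38A2 and SLC43A2. They were chosen by name and function, and all 10 were found among the 34080 genes measured. HK-2 cells, a human kidney line derived from the proximal tubule and immortalised, carried HA-PRCC-TFE3, an HA-tagged chimera of PRCC and TFE3 that is found in TFE3-rearranged renal cell carcinoma, under a doxycycline-inducible Tet-On system. Cultures were kept for 24 h with 0.2 microg/ml doxycycline, named Doxy(+), or without it, named Doxy(-), and 2 polyadenylated RNA libraries were sequenced per group. Both groups carried the transgene and shared the same medium with serum, penicillin and streptomycin, and the study's methods also name blasticidin S and puromycin for the engineered line. Transgene-free HK-2 cells given doxycycline were not analysed here, and the effects of doxycycline and of PRCC-TFE3 cannot be told apart. Nothing in the labels says that the libraries of a group came from separate cultures, and p-values then measure only the spread between these libraries.

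The libraries held 14042545 to 16618401 estimated counts, of which 12654233 to 15012743 fell on the genes used. TFE3, whose sequence the transgene carries in part, measured 66.9 and 69.0 CPM (counts in 1000000, after TMM scaling of library totals) without doxycycline against 367 and 322 CPM with it, as the labels say. The edgeR log2 fold change of TFE3 was 2.34, and 0.09 when protein-coding transcripts alone were counted. Of 12 proximal tubule markers, 7 were under 1 CPM in every library, with LRP2 at 0.068 CPM or less and SLC22A6 and SLC22A8 at 0, while GGT1 was at 68.7 to 86.1 CPM and the renal epithelial factor PAX8 at 565 to 605 CPM. The 12 summed to 79.8 and 80.4 CPM in Doxy(-) and to 96.7 and 103.0 CPM in Doxy(+), with GGT1 (log2 fold change 0.25, edgeR adjusted p = 0.0410) and MME (1.31, adjusted p = 0.00264) higher. SLC34A1 went the other way, from 1.32 and 1.09 CPM to 0.233 and 0.521 CPM, without passing (log2 fold change -1.64, edgeR adjusted p = 0.0779). The summed level of 10 renal epithelial markers was 2311 and 2308 CPM in Doxy(-) and 1926 and 1953 CPM in Doxy(+). Of these, CDH6 (log2 fold change -0.94), CDH2 (-0.45), KRT19 (-0.41), KRT8 (-0.24) and KRT18 (-0.24) were lower at an edgeR adjusted p under 0.05. None was called higher, and PAX8 (0.06, edgeR adjusted p = 0.217) was not called. The 7 markers of other kidney segments, 5 of them under 1 CPM in every library, summed to 0.777 and 0.686 CPM against 3.27 and 2.39 CPM. Among them NPHS1 went from 1 and 2 counts to 17 and 14.1 counts (log2 fold change 3.34, edgeR adjusted p = 0.0129). The 9 markers of fibroblasts, endothelium and blood summed to 170.4 and 172.1 CPM against 210.3 and 207.8 CPM. Of the 9, 6 were under 1 CPM in every library, with COL3A1, CDH5 and HBB at 0. Most of this sum was CD68, a lysosomal protein of macrophages and other cells, at 143.7 and 149.4 CPM against 190.2 and 188.8 CPM, while the fibroblast marker COL1A1 was lower (log2 fold change -0.40, edgeR adjusted p = 0.0414). The part of these marker shifts in the results below was not tested. In RNA of whole cultures, fewer cells of a type and less RNA per cell cannot be told apart.

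Amino acids enter and leave cells through families of solute carriers that differ in substrate and in coupling to sodium. SLC3A2 (CD98, the heavy chain) brings a light chain of the SLC7 family to the cell surface, where the pair exchanges 1 amino acid for another; SLC7A5 with SLC3A2 takes up leucine and other large neutral amino acids and releases glutamine. SLC1A5, SLC38A1 and SLC38A2 use sodium to move glutamine and small neutral amino acids, SLC7A1 takes up arginine and lysine, and SLC43A2 lets leucine and phenylalanine pass down their gradient. In the cell, amino acids taken up in this way feed the kinase complex mTORC1, which holds TFE3 in the cytoplasm when they are plentiful. In the proximal tubule such carriers reclaim filtered amino acids.

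The data show small shifts in opposite directions. SLC3A2 and SLC38A1 were higher in Doxy(+), by 25.3% and 9.64%. SLC1A4 and SLC7A1 were lower, and fell by 14.9% and 10.9%. For SLC38A2, SLC7A5, SLC7A6, SLC1A5 and SLC43A2 no change passed the test, and SLC7A8 had too few counts to be tested.

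First, the heavy chain was examined. SLC3A2 (chr11:62856004-62888880, plus strand, in GENCODE release 44 on hg38) measured 91.7 and 78.5 CPM in the Doxy(-) libraries against 104.7 and 108.4 CPM with doxycycline. Both Doxy(+) libraries lay above both Doxy(-) libraries, and the Doxy(-) libraries differed from each other by more than the Doxy(+) libraries did. The log2 fold change of Doxy(+) over Doxy(-) was 0.33 (SE 0.0782), with a 95% interval of 0.14 to 0.52 and an adjusted p of 0.0355 by edgeR's quasi-likelihood test with Benjamini-Hochberg adjustment over all genes tested. The change was thus larger than the spread between libraries under this test. It passed in 10 of the 16 settings tried, with log2 fold changes of 0.22 to 0.44 over all of them.

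Next came the light chains that SLC3A2 carries. SLC7A5, the leucine exchanger LAT1 (chr16:87830023-87869507, minus strand), measured 100.1 and 96.3 CPM in Doxy(-) against 90.5 and 92.0 CPM in Doxy(+). The Doxy(+) values were below the Doxy(-) values by a small step, and the log2 fold change of -0.11 (95% interval -0.22 to 0.01) did not pass (edgeR adjusted p = 0.181). The pseudogenes SLC7A5P1 and SLC7A5P2, with which it could share reads, held at most 7.91 and 15.2 counts in any library, against 1165 to 1415 counts for SLC7A5. SLC7A6, which exchanges cationic for neutral amino acids (chr16:68264516-68301823, plus strand), measured 192 and 190 CPM in Doxy(-) against 184 and 184 CPM in Doxy(+). The groups did not overlap, but the log2 fold change of -0.05 (95% interval -0.14 to 0.03) did not pass (edgeR adjusted p = 0.338), and it was 0.02 when limma was run on TPM. SLC7A6 shares 3372 exonic bases with SLC7A6OS on the other strand, which held 521 to 610 counts, and since the strand setting of the counting is not stated, reads of the pair cannot be told apart.

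SLC7A8, the neutral amino acid exchanger LAT2 that is known from the basolateral side of the proximal tubule (chr14:23125295-23183674, minus strand), was close to absent. It had 0 and 1 counts in the Doxy(-) libraries and 7 and 3 counts in the Doxy(+) libraries. A count of 0 allows up to 3 counts, or 0.233 CPM in that library, which covers counting error only. SLC7A8 did not pass the low-count filter, and no fold change is given.

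Of the cationic carriers, SLC7A1 (CAT1, chr13:29509414-29595688, minus strand) measured 178.7 and 180.0 CPM in Doxy(-) against 159.9 and 159.7 CPM in Doxy(+). The libraries of each group lay within 2 CPM of each other and the groups were apart. Its log2 fold change was -0.17 (SE 0.0352, 95% interval -0.25 to -0.08), with an edgeR adjusted p of 0.0237. It passed in 10 of the 16 settings, and its log2 fold change stayed between -0.20 and -0.16.

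The SLC1 pair differed in outcome. SLC1A4 (ASCT1, an exchanger of alanine, serine, cysteine and threonine, chr2:64988477-65023865, plus strand) measured 64.5 and 67.0 CPM in Doxy(-) against 55.9 and 56.0 CPM in Doxy(+). Every Doxy(+) value was below every Doxy(-) value, and the log2 fold change was -0.23 (SE 0.0535, 95% interval -0.36 to -0.10, edgeR adjusted p = 0.0310). It passed in 8 of the 16 settings, with log2 fold changes of -0.27 to -0.21. SLC1A5 (ASCT2, the glutamine exchanger, chr19:46774883-46788594, minus strand) measured 236 and 224 CPM in Doxy(-) against 226 and 224 CPM in Doxy(+). The libraries overlapped, and the interval of the log2 fold change, -0.13 to 0.06 around -0.03, places any change of SLC1A5 under 10% (edgeR adjusted p = 0.598). The difference between SLC1A4 and SLC1A5 was not itself tested.

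The sodium-coupled carriers of the SLC38 family lie next to each other on chromosome 12. SLC38A1 (SNAT1, chr12:46183063-46270017, minus strand) measured 466 and 479 CPM in Doxy(-) against 524 and 513 CPM in Doxy(+). The groups were apart, with a log2 fold change of 0.13 (SE 0.0310, 95% interval 0.06 to 0.21, edgeR adjusted p = 0.0323), which passed in 8 of the 16 settings. SLC38A2 (SNAT2, known to be induced when amino acids are scarce, chr12:46358188-46372773, minus strand) measured 319.7 and 312.4 CPM in Doxy(-) against 290.0 and 294.3 CPM in Doxy(+). Here, too, the groups were apart, in the other direction, and the log2 fold change of -0.11 (SE 0.0324, 95% interval -0.19 to -0.03) had an edgeR adjusted p of 0.0602. It passed in 2 of the 16 settings, without a low-count filter (adjusted p = 0.0496) and without the second Doxy(-) library (adjusted p = 0.0420).

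SLC43A2, the facilitated carrier LAT4 (chr17:1569268-1628886, minus strand), was low, with 52.1 to 63.8 counts per library. It measured 4.30 and 3.55 CPM in Doxy(-) against 4.20 and 4.75 CPM in Doxy(+), and the groups overlapped. The log2 fold change of 0.20 had a 95% interval of -0.33 to 0.73, so a change of either sign was within the precision of these counts (edgeR adjusted p = 0.571). The value depended on the unit, and came to 0.75 and 0.95 when limma was run on log2(TPM + 1) and log2(TPM + 0.1) and to 0.96 with length-scaled counts, without passing in any of them.

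**Figure D1:**
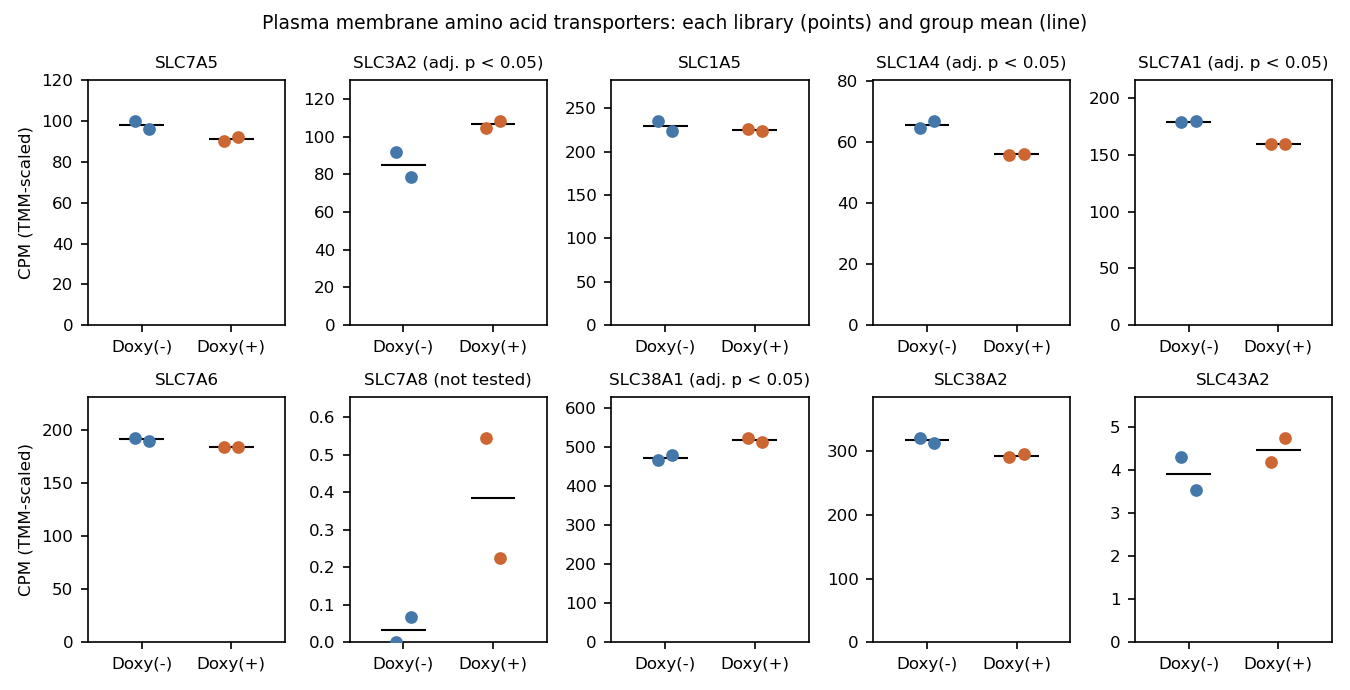
CPM of each of the 10 genes in each library, with 1 panel per gene, Doxy(-) and Doxy(+) libraries as points and the group mean as a line. SLC3A2 and SLC38A1 lie higher in both Doxy(+) libraries, SLC1A4 and SLC7A1 lie lower in both, and SLC1A5 and SLC43A2 overlap between groups.

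Read over all 9 genes tested, 2 were higher (background, 9.76% of 13569 genes) and 2 were lower (background, 9.53%) at an adjusted p under 0.05. Among genes that averaged 50 CPM or more, where small changes are easier to detect, 14.1% of 4372 genes were higher and 19.4% were lower, beside 2 and 2 of the 8 transporters at that level. These counts are too few to set the transporters apart from other genes. The median log2 fold change of the 9 was -0.05, and that of all genes tested was 0.0006. Groups did not overlap for 7 of the 9, where the background was 61.1% of genes tested.

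None of the 9 passed the limits that the study used for a differentially expressed gene, a log2 fold change over 1 in size together with an adjusted p under 0.05, which 1.98% of all genes tested did. At an unadjusted p under 0.05, 5 of the 9 passed in edgeR (background, 33.4%), and the count past both limits was also 0 in DESeq2 and in limma. The 95% intervals of the 9 genes in the main edgeR fit all stayed between -0.36 and 0.73 on the log2 scale. In that fit a doubling or a halving of any of them was outside its interval. For SLC43A2 the log2 fold change reached 0.96 in another setting, whose interval is not given here, so this limit holds for the main fit alone. Each call rested on both Doxy(+) libraries: without Doxy(+) replicate 1 the edgeR adjusted p of the 4 called genes was 0.110 to 0.226, and without replicate 2 it was 0.138 to 0.153. Without Doxy(-) replicate 2, SLC1A4 was no longer called (edgeR adjusted p = 0.0809).

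**Figure D2:**
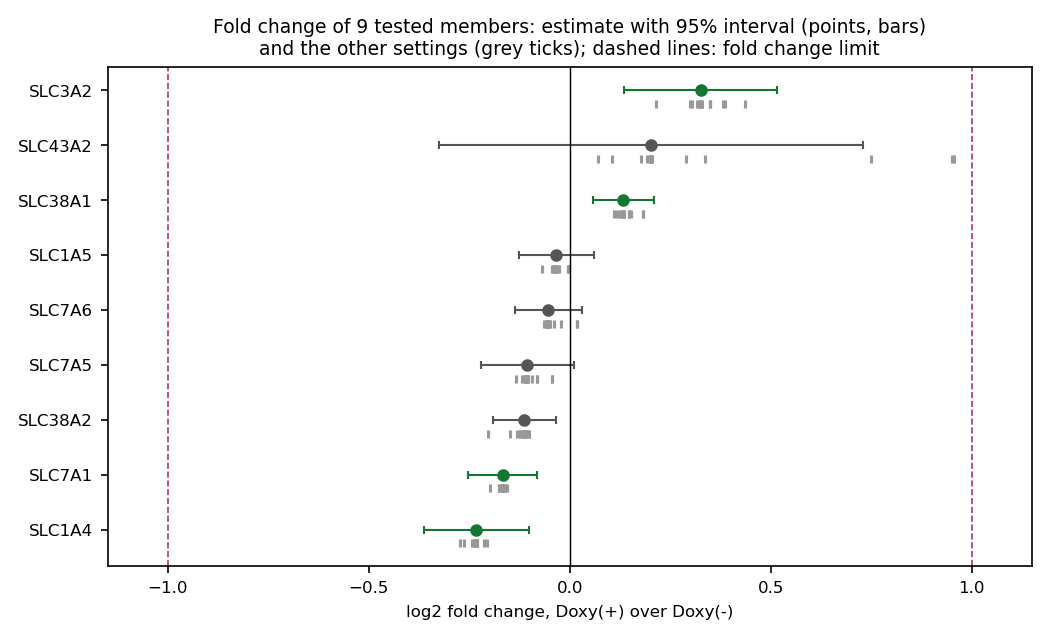
Log2 fold change, Doxy(+) over Doxy(-), of the 9 genes tested, as the edgeR estimate with its 95% interval (green where the adjusted p was under 0.05, grey elsewhere) and the values under the other settings (grey ticks). The 4 green intervals leave out 0 and no interval reaches the dashed limits at -1 and 1, while ticks for SLC43A2 run up to 0.96 and those of SLC7A6 cross 0.

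The genomic sequence at the start sites of these genes was then read for short motifs. The motif shown in full is the core that C/EBP and ATF factors bind, TGATGNAA, on both strands, in RefSeq windows (GRCh38.p14) from 250 bases before to 50 after each annotated start site. It was found in 5 of the 10 genes, beside 2.86% of the 10430 tested genes with a window. By window, it was in 5 of the 21 windows of the 10 genes, beside 3.62% of all 35116 windows. A gene with more windows has more places for a match. The 10 genes had 1 to 4 windows each, and the number per gene among the others is not given here. These shares were not tested against each other. The stretches are shown because the 4 called genes all held the motif in at least 1 window, although 2 of them rose and 2 fell. SLC1A5, which was not called, held it too. In the stretches below, the match is in capitals and each is read in the direction of its gene.

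SLC3A2 (chr11:62881719-62881748, plus strand, match at 37 to 44 with the start site as 0): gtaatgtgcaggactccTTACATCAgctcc

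SLC38A1 (chr12:46266502-46266531, minus strand, match at -4 to 3): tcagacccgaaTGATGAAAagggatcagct

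SLC1A4 (chr2:64989381-64989410, plus strand, match at -7 to 0): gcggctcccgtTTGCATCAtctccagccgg

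SLC7A1 (chr13:29595663-29595692, minus strand, match at 7 to 14): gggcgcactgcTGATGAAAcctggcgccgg

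SLC1A5 (chr19:46784893-46784922, minus strand, match at -97 to -90): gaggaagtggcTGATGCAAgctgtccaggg

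In SLC1A4 and SLC3A2 the match lies on the other strand, so its capitals read as the reverse complement of the motif. In SLC3A2, SLC7A1, SLC38A1 and SLC1A4 it overlaps the annotated start site of its window or lies within the first 50 bases after it. For SLC1A4 and SLC7A1 that site is where the transcript with most TPM starts. For SLC3A2, SLC38A1 and SLC1A5 the site is a different one, at chr11:62881699, chr12:46266516 and chr19:46784814. Their transcripts with most TPM start at chr11:62880896, chr12:46269043 and chr19:46788594. The letters are a description of the sequence and do not show binding. The E-box CACGTG, the core to which TFE3 and its relatives bind, was in the windows of SLC7A5, SLC1A5 and SLC7A8, in 7.26% of all windows and in 12.7% of the tested genes with a window. None of these 3 genes was called. They are shown because they include the leucine and glutamine exchangers.

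SLC7A5 (chr16:87869620-87869649, minus strand, match at -130 to -125): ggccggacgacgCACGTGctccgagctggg

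SLC1A5 (chr19:46787326-46787355, minus strand, match at -50 to -45): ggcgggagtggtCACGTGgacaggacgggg

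SLC7A8 (chr14:23154505-23154534, minus strand, match at -129 to -124): cacaattagaaaCACGTGctcagttccttc

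The longer palindrome TCACGTGA, which contains the E-box and occurs in 0.980% of all windows, was in none of the windows of the 10 genes.

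Levels were compared between genes in TPM, the authors' abundance per transcript length, summed per gene. SLC38A2 was highest, at 194 and 163 TPM in Doxy(-) and 173 and 156 TPM in Doxy(+). SLC1A5 was at 129 and 127 TPM and at 128 and 127 TPM, and SLC38A1 at 110 and 113 TPM and at 129 and 125 TPM. In Doxy(+) the libraries of SLC1A5 and SLC38A1 therefore overlapped, which they did not in Doxy(-). SLC3A2 followed at 89.5 and 79.8 TPM in Doxy(-) and at 107 and 114 TPM in Doxy(+). SLC7A6 was at 84.3 and 97.8 TPM and at 92.7 and 91.3 TPM, and overlapped SLC3A2 in Doxy(-) alone. Lower in the order, SLC7A1, SLC7A5 and SLC1A4 lay between 24.1 and 37.0 TPM in every library. SLC43A2 was at 2.20 to 5.35 TPM and SLC7A8 at 0 to 0.602 TPM. Summed over the 10 genes the level was 708 and 683 TPM in Doxy(-) and 724 and 710 TPM in Doxy(+) (exact permutation test, two-sided, p = 0.333, the smallest that 2 against 2 libraries allow).

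The place of SLC38A2 in this order rested on transcripts that are not annotated as protein-coding. Its coding transcripts made up 20.9 to 30.6% of its TPM, and 38.5 to 51.8% of its counts. On coding transcripts alone it was at 40.5 and 49.7 TPM in Doxy(-) and at 40.0 and 40.3 TPM in Doxy(+), and by its mean it moved from the first place to the fifth. In Doxy(-) it then overlapped SLC7A6, which had 46.9 and 48.0 TPM on coding transcripts, so these places are not separated there. The nonsense-mediated decay transcript SLC38A2-208 alone took 23.9 to 30.4% of the TPM of the gene. SLC7A6 had 49.1 to 55.8% and SLC3A2 67.8 to 75.5% of their TPM on coding transcripts, while SLC1A5 and SLC7A5 had all of it there.

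**Figure D3:**
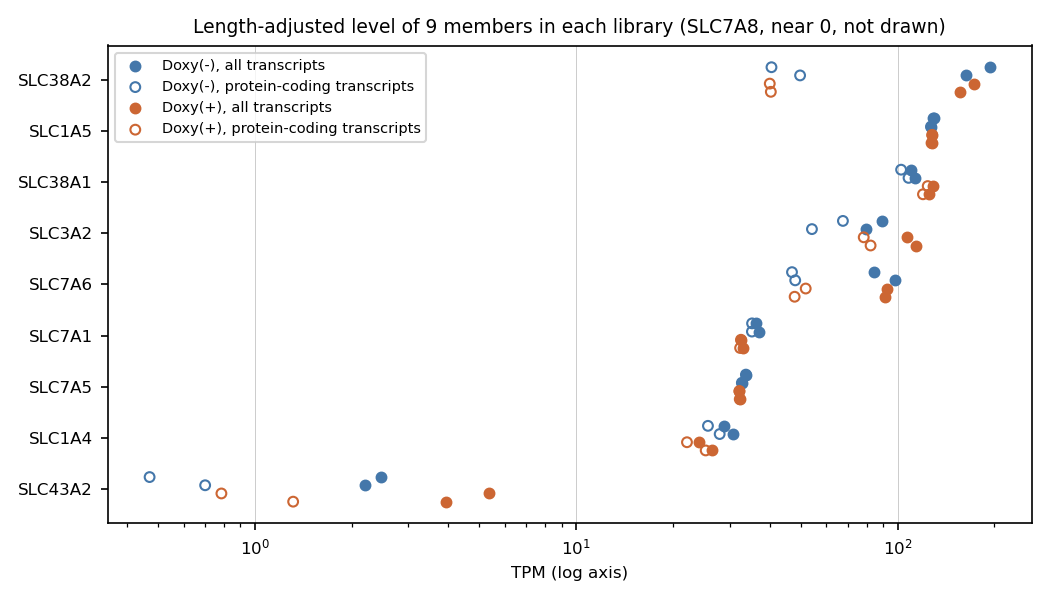
TPM on a log axis for 9 genes in each library, over all transcripts (filled) and over protein-coding transcripts alone (open), for Doxy(-) and Doxy(+). The open points of SLC38A2 lie near 40 to 50 TPM, far left of its filled points at 156 to 194 TPM, whereas the open and filled points of SLC1A5 coincide.

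Because SLC7 light chains need SLC3A2 to reach the surface, their transcripts were set against it in each library. The summed TPM of 6 light chains (SLC7A5, SLC7A6, SLC7A7, SLC7A8, SLC7A10 and SLC7A11) over that of SLC3A2 came to 1.45 and 1.74 in Doxy(-) against 1.26 and 1.13 in Doxy(+), or 1.59 ± 0.206 against 1.19 ± 0.0885 (SD, n = 2). Both Doxy(+) ratios were below both Doxy(-) ratios. For SLC7A5 alone the ratio came to 0.377 and 0.410 in Doxy(-) against 0.301 and 0.282 in Doxy(+). In both cases the exact permutation p was 0.333, which is the smallest this design allows, so neither can reach 0.05. The light chains with most transcript, SLC7A6 and SLC7A5, were not called, and the denominator SLC3A2 was. SLC7A11, a light chain with less transcript, was called lower (log2 fold change -0.49, edgeR adjusted p = 0.0144). It was at 7.97 and 5.69 TPM in Doxy(-) against 3.49 and 3.06 TPM in Doxy(+).

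Within SLC3A2 the transcripts did not shift alike. SLC3A2-208, a coding transcript that starts at the base from which the SLC3A2 motif position was counted, had 126 and 80.0 counts in Doxy(-) and 226 and 204 counts in Doxy(+), and its share of the TPM of the gene went from 11.3 and 7.0% to 17.5 and 14.1%. The groups did not overlap for SLC3A2-208, which is 1 of 23 transcripts of the gene, and no transcript was tested. SLC3A2-209, which starts at the same base, had 36.2 and 78.7 counts in Doxy(-) and 26.2 and 71.0 counts in Doxy(+). Its groups overlapped, as did those of SLC3A2-212 from the same base, with 2.94 and 9.99 counts against 20.4 and 9.25. SLC3A2-207 and SLC3A2-215, also from this base, had 0 counts in both Doxy(-) libraries. In Doxy(+) they had 7.86 and 18.0 counts, and 7.14 and 5.82 counts. SLC3A2-210 had 1.65 and 0 counts in Doxy(-) and 0 in Doxy(+). The transcripts from this base thus did not all shift alike. The main transcript SLC3A2-201 held 45.5 and 45.6% in Doxy(-) and 39.4 and 44.2% in Doxy(+). A single transcript rests on how the quantifier divided shared reads, and several transcripts of SLC3A2 differed widely between libraries of a group. For example, another coding transcript, which starts in the upstream part of the gene, had 174.5 and 28.1 counts in the Doxy(+) libraries. The 2 coding transcripts of SLC7A5 also overlapped between groups, with SLC7A5-201 at 67.0 and 54.4% of the TPM in Doxy(-) and at 47.3 and 56.3% in Doxy(+).

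Finally, 7 lists of genes around amino acid transport, chosen by function, were counted with the same test. Over all 13569 genes tested, 9.76% were higher and 9.53% lower, and no list was tested against that background. Among 23 other members of the same families, 12 were tested (SLC38A3 had no row). Of these, 2 were higher (16.7%) and 1 lower (8.3%), with a median log2 fold change of 0.00. SLC38A6 (0.79, edgeR adjusted p = 0.00231) and SLC38A10 (0.19, adjusted p = 0.0408, called in 7 of the 16 settings) were higher. SLC7A11, the cystine exchanger that also pairs with SLC3A2, went from 29.3 and 30.4 CPM to 22.6 and 19.9 CPM (log2 fold change -0.49, edgeR adjusted p = 0.0144, with -1.09 to -0.41 over the 16 settings).

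Of 15 amino acid carriers of other families at the plasma membrane, 8 were tested. Among these, 2 were higher (25%) and 1 was lower (12.5%), with a median of 0.01. SLC6A15, a carrier of branched-chain amino acids and proline, measured 47.7 and 46.8 CPM in Doxy(-) against 94.3 and 94.8 CPM in Doxy(+). It was 100.1% higher (edgeR adjusted p = 0.000204), which sat on the log2 fold change limit of 1, and was past both limits in 10 of the 16 settings. SLC6A12, the betaine and GABA carrier, rose from a low level of 2.25 and 1.45 CPM to 4.55 and 5.06 CPM (1.40, adjusted p = 0.0213), and was called in 9 of the 16 settings. SLC6A20, an imino acid carrier, was lower (-0.69, edgeR adjusted p = 0.00995, with -1.26 to -0.55 over the settings). Unlike the 10 transporters, this list held 2 genes past both limits. That difference was not tested.

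Of the lysosomal amino acid carriers with LAPTM4B, which brings SLC7A5 and SLC3A2 to the lysosome, 9 of 10 were tested. At an edgeR adjusted p under 0.05, 5 were higher (55.6%, beside 9.76% of all genes tested) and 0 were lower (beside 9.53%). At an unadjusted p under 0.05 in either direction, 5 of the 9 passed, beside 33.4% of all genes tested. The median log2 fold change was 0.36. The cystine exporter CTNS rose from 20.6 and 24.5 CPM to 49.6 and 51.3 CPM (1.16, edgeR adjusted p = 0.000779) and was past both limits. SLC66A1, which exports cationic amino acids, was higher by 0.93 (adjusted p = 0.000346), and SLC38A7, which exports glutamine, by 0.89 (adjusted p = 0.000644). SLC36A1 and LAPTM4B were the others. The lists were chosen with earlier results of these data known, and no difference between lists was tested.

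Of ATF4 and its targets, 23 of 23 were tested, with a median of 0.04. Among them 8 were higher (34.8%, beside 9.76% of all genes tested) and 4 were lower (17.4%, beside 9.53%). DDIT3, a stress-induced transcription factor, rose from 31.7 and 26.6 CPM to 72.5 and 71.9 CPM (1.31, edgeR adjusted p = 0.000418), and NUPR1 rose from 9.15 and 9.13 CPM to 20.9 and 18.5 CPM (1.11, adjusted p = 0.00181). Both were past both limits in all 16 settings. ATF4 itself was slightly lower (-0.12, edgeR adjusted p = 0.0347), the proline synthesis enzyme PYCR1 was lower (-0.52, adjusted p = 0.00256), and for asparagine synthetase, ASNS, the log2 fold change was 0.07 (adjusted p = 0.435). The others called higher were CEBPB (0.67), TRIB3 (0.45), CTH (0.38), DDIT4 (0.35), VLDLR (0.23) and PPP1R15A (0.19). The others called lower were ATF3 (-0.47) and ALDH18A1 (-0.15). Within the list, the genes thus moved in both directions, with more called higher than lower.

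Of the 20 cytosolic aminoacyl-tRNA synthetases, 2 were higher (10%) and 2 lower (10%), with a median of -0.04. These shares are near those of all genes tested, 9.76% and 9.53%. AARS1 was higher (0.40, edgeR adjusted p = 0.00102) and was called in all 16 settings. KARS1 (-0.25, edgeR adjusted p = 0.00737) and MARS1 (-0.19, adjusted p = 0.0205) were lower, each called in 11 of the 16 settings. Of 19 enzymes of glutamine and branched-chain amino acid metabolism, 18 were tested, 2 were higher (11.1%) and 3 lower (16.7%), with a median of 0.03. GOT1, an aspartate aminotransferase, was lower (-0.47, edgeR adjusted p = 0.00394), and MCCC1, of leucine breakdown, was higher (0.77, adjusted p = 0.00287). Of 16 known regulators of these carriers, 14 were tested, 3 were higher (21.4%) and 5 lower (35.7%), with a median of -0.10. MYC, known to drive several of these carriers, fell from 213 and 237 CPM to 130 and 131 CPM (-0.78, edgeR adjusted p = 0.000615), and NEDD4L (0.46, adjusted p = 0.000846), a ubiquitin ligase, and EPAS1 (0.35, adjusted p = 0.00130), a hypoxia factor, were higher. SLC38A6, CTNS, DDIT3, PYCR1, AARS1, KARS1 and MARS1 share exonic bases with another gene, DDIT3 and MARS1 with each other, and reads there cannot be told apart without the strand.

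**Figure D4:**
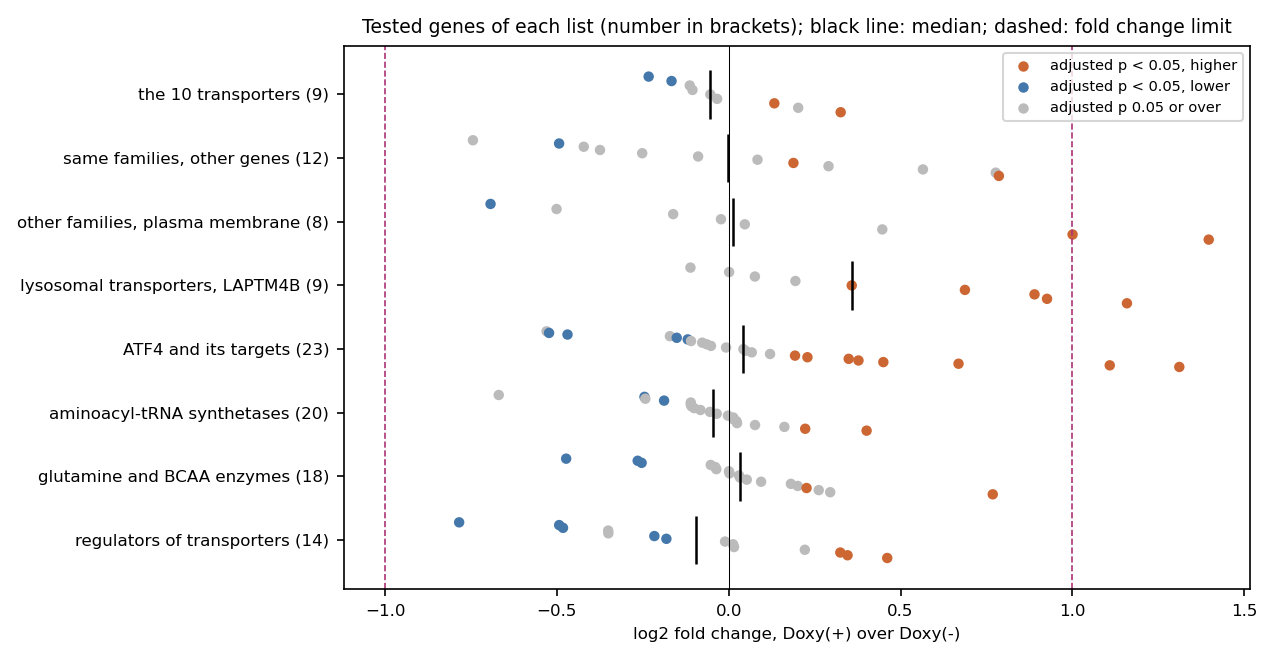
Log2 fold change, Doxy(+) over Doxy(-), of every tested gene of the 10 transporters and the 7 lists, with the number tested in brackets, colour for the call and a black line at each median. The transporters lie within 0.33 of 0 on either side, and the medians run from -0.10 for the regulators to 0.36 for the lysosomal carriers.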

How the data were processed

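Polyadenylated RNA of HK-2 cells was sequenced with a TruSeq stranded kit. The study's methods and processing notes name Trim Galore 0.6.6, cutadapt 2.5, STAR 2.7.9a (hg38), RSEM and DESeq2. What the authors deposited has the column layout of kallisto instead: an estimated count (expected count, not normalized and not whole) and a TPM per Ensembl transcript. The quantifier, its version and its strand setting are not given in the sources used here.

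Of 180253 deposited identifiers, 150691 matched GENCODE release 44 (83.6%), giving 34080 genes. The 29562 others, 9.66 to 9.89% of counts, were left out. Counts were summed per gene, rounded, and compared in R 4.3.3 by edgeR 4.0.16 (glmQLFit, glmQLFTest, TMM, filterByExpr, group as the only term, Benjamini-Hochberg over 13569 genes). The SE follows from the F statistic. CPM values use TMM-adjusted totals. Promoter windows are from RefSeq, and the genome coordinates of genes from GENCODE. The script was tested on simulated data. Alternatives used RLE scaling, other filters, DESeq2 1.42.0, limma 3.58.1 on log2(TPM + 1) and log2(TPM + 0.1) over genes with a mean TPM of at least 1, length-scaled counts, a replicate block, added unmatched copies of matched transcripts, a limit of 0.01 and each library left out. The crossed block and the protein-coding transcripts were chosen after seeing the data.

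The members and lists were chosen with earlier results of these data known. Genes named are all members, TFE3, the 3 genes with the smallest p of each list and any past both limits, and pseudogenes of members. ATF4, ASNS, SLC36A1, LAPTM4B, the overlapping gene SLC7A6OS and the marker genes were named outside this rule. So were the called genes of the ATF4 list beyond DDIT3, NUPR1 and PYCR1. A gene that this rule names is not reported here. No protein sequences were used here.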

Additional observations from a re-analysis of the deposited data

How the results depend on the processing

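With 2 libraries per group, calls near the threshold were unstable. Of the 10 transporters, 2 were called higher and 2 lower, and none was past both limits, under RLE scaling, a mean CPM of at least 1 and added copies. Without a low-count filter it was 2 and 3. Counts fell to 1 higher and 0 lower in DESeq2, to 0 and 1 with protein-coding transcripts alone, and to 0 and 0 in limma with either pseudocount, with length-scaled counts and at a limit of 0.01. Leaving out 1 library gave 0 to 2 higher and 0 to 2 lower, with 0 and 0 without either Doxy(+) library, where the lone library was assumed to vary like the others. The number past both limits was 0 throughout. No cause was tested.

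The signs of the 9 transporters tested, other than SLC7A6, held in all 16 settings, and that of SLC7A6 reversed in limma on TPM, to 0.0187 with a pseudocount of 1 and 0.0189 with 0.1. For the 7 lists, 12, 8, 9, 23, 20, 18 and 14 genes were tested. Of these, 24 were higher and 16 lower (background, 9.76% and 9.53% of 13569 genes tested). Lower genes numbered 5 in limma with either pseudocount and 6 with length-scaled counts, at a limit of 0.01 there were 15 higher and 10 lower, and leaving out 1 library gave 15 to 24 higher and 8 to 17 lower. The light chain ratio differed by -0.40 between groups, by -0.10 with SLC7A5 alone and by -0.34 on coding transcripts. TFE3 was higher by 0.09 on coding transcripts alone, against 2.34.

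The replicate number as a block gave 2 higher and 2 lower transporters, and 23 and 15 genes of the lists. The differences between the replicates of a group correlated weakly and negatively between groups (-0.22 over 9609 genes). This does not show that the numbers pair the samples, and the correlation alone cannot settle it. A crossed block, chosen after seeing the data, gave 1 higher and 2 lower.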

Other observations

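All 217 tested genes with an SLC name were counted, a set chosen after their values were seen. At an edgeR adjusted p under 0.05, 40 were higher and 18 lower (background, 9.76% and 9.53% of 13569 genes tested). Their median log2 fold change was 0.07, and 6 and 2 were past both limits (background, 1.98% in either direction). The set was not tested against that background. Beside SLC6A15 and SLC6A12, those higher were SLC30A3, a zinc carrier (2.30), SLC2A3, a glucose carrier (1.23), SLC11A2, an iron carrier (1.17), and SLC25A36, a mitochondrial carrier of pyrimidine nucleotides (1.12). SLC25A36 went from 108.0 and 119.9 CPM to 247.2 and 247.4 CPM, and SLC11A2 from 47.4 and 49.5 CPM to 112.2 and 106.3 CPM. Those lower were SLC2A2, a glucose carrier (-1.97), and SLC17A3, a urate carrier (-1.73), which had 34 and 25 counts in Doxy(-) and 8 and 9 counts in Doxy(+).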
